A study of Homo sapiens with 6 samples.

Results

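The corepressor and coactivator genes through which thyroid hormone receptors act were examined for accessible chromatin in Nthy-ORI, a cell line from normal thyroid epithelium. They were named by gene symbol, 9 of 19974 protein-coding genes: NCOR1, TBL1X, TBL1XR1 and HDAC3 on the corepressor side and NCOA1, NCOA2, NCOA3, EP300 and MED1 on the coactivator side. Their peaks were chosen by position, within 1 kb of a boundary of the gene, inside it, or up to 100 kb outside it, in the RefSeq annotation of GRCh38.p14. This gave 3 of 7103 peaks in the vehicle list, 5 of 12385 in the list of triiodothyronine (T3, the active hormone) for 6 h, and 68 of 60661 in the list of T3 for 24 h. A gene-end peak here is one whose position, the midpoint of its 2 replicate summits, lay within 1 kb of either boundary.

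ATAC-seq, which tags open DNA with the Tn5 transposase, was run on 6 samples in 3 groups of 2. All cells were first kept for 24 h in hormone-stripped, phenol-red-free medium. The groups then received NaOH vehicle (labelled 6 h), 10 nM T3 for 6 h or 10 nM T3 for 24 h, and nuclei of 50000 cells entered each reaction. The vehicle was labelled 6 h, so at 24 h hormone and time cannot be told apart.

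Without hormone, the receptor holds a corepressor complex on its target genes. NCOR1 is the scaffold of that complex, TBL1X and TBL1XR1 are its WD40-repeat subunits, and HDAC3 is the histone deacetylase that NCOR1 activates. Binding of T3 releases this complex and opens a surface for the steroid receptor coactivators NCOA1, NCOA2 and NCOA3. These recruit histone acetyltransferases such as EP300, while MED1 links the receptor to the Mediator complex and so to RNA polymerase II.

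Each list holds regions that the authors found in both replicates of 1 group, with signals on an unstated scale, so no test was made between conditions, and a region absent from a list has no value there. The lists differed throughout: the median distance between replicate summits was 180 bp in vehicle, 222 bp at 6 h and 46 bp at 24 h, and 60.8% of all protein-coding genes had a gene-end peak at 24 h against 1.34% in vehicle and 10.8% at 6 h. Signals are the authors' own and were compared only within a list. Of 7 genes that mark thyroid follicular cells, chosen after values were seen, 5 had a gene-end peak at 24 h, beside 60.8% of all genes. They were TSHR, PAX8, NKX2-1, FOXE1 and HHEX. PAX8 also had a gene-end peak at 6 h, and TG and SLC5A5 had none in any list. Percentiles give the rank of a peak by summed signal in its own list, with 100 the strongest.

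None of the 9 genes had a gene-end peak in the vehicle list or in the T3 6 h list. In the T3 24 h list 6 of 9 did (66.7%, near the 60.8% of all genes): NCOR1, TBL1X, HDAC3, NCOA1, NCOA3 and MED1. The other 3 genes were TBL1XR1, NCOA2 and EP300. Measured against the gene starts of the RefSeq promoter table, which 8 of the 9 genes matched (NCOA2 did not), 7 of the 8 had a 24 h peak within 1 kb of a start, against 64.9% of 15812 genes of that table. The gene added in this way was TBL1XR1, and the EP300 peak lay 1017 bp away.

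Peaks inside the genes were found at 1 of 9 genes in vehicle (NCOA3, with 6.94% of all genes), at 0 at 6 h (13.2%) and at 5 at 24 h (42.4%): TBL1X, TBL1XR1, HDAC3, NCOA2 and NCOA3. Such shares rise with gene length. In the longest of 10 equal length classes they were 28.8% in vehicle, 46.7% at 6 h and 86.5% at 24 h. NCOR1, TBL1X, TBL1XR1, NCOA1, NCOA2 and NCOA3 belong to that class, so the shares of all genes are too low a background for them. Peaks 1 to 100 kb outside were found at 2 genes in vehicle (28.0% of all genes), at 4 at 6 h (59.1%) and at 8 at 24 h (95.7%), with NCOA2 the exception. In all, 3 genes had a peak of some kind in vehicle (33.1% of all genes), 4 at 6 h (66.8%) and 9 at 24 h (97.6%). The median gene of the group had 8 peaks at 24 h, as had the median over all genes, which is not matched for length. In the longest length class the median was 10.

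**Figure D1:**
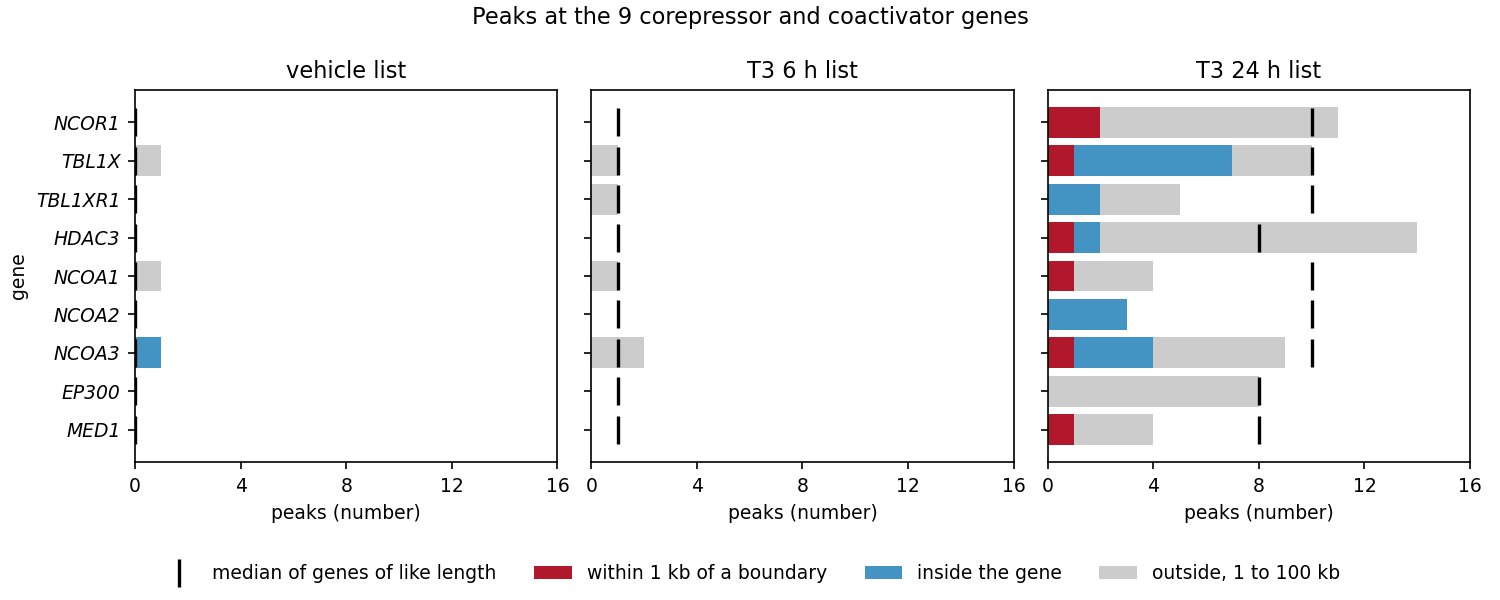
Number of peaks at each gene (horizontal axis) in the 3 lists, split by position: within 1 kb of a boundary, inside the gene, or 1 to 100 kb outside it. Black marks are medians over genes of like length; the bars are almost absent in vehicle and at 6 h and reach 14 peaks, at HDAC3, at 24 h.

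The 250 bases before the start are shown for the 7 genes with a listed start under a 24 h peak, so that the open starts can be compared. The sequences are RefSeq's, GRCh38.p14, written 5′ to 3′ on the gene's strand. They cover chr17:16215535-16215784 (NCOR1, minus strand), chrX:9463045-9463294 (TBL1X, plus), chr3:177197483-177197732 (TBL1XR1, minus), chr5:141636850-141637099 (HDAC3, minus), chr2:24491004-24491253 (NCOA1, plus), chr20:47501637-47501886 (NCOA3, plus) and chr17:39451264-39451513 (MED1, minus). Capitals mark matches, on either strand, to any of 9 motifs searched: GGGCGG (Sp and KLF factors), CCAAT (NF-Y), CCGGAA (ETS), CACGTG (E-box), GCATGC (NRF1 core), TGACGT (core of the cyclic AMP response element), TGACTCA (AP-1), TATAAA and AGGTCA (a thyroid hormone receptor half-site).
NCOR1: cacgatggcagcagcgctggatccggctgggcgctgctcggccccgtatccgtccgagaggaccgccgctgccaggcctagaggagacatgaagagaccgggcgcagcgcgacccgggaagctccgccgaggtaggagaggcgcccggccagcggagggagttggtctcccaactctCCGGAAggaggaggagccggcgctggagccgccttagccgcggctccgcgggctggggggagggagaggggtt
TBL1X: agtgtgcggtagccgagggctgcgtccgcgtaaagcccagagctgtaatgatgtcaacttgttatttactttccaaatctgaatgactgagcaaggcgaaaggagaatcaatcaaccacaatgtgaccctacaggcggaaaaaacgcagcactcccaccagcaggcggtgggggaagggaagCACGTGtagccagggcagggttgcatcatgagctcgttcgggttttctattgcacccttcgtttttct
TBL1XR1: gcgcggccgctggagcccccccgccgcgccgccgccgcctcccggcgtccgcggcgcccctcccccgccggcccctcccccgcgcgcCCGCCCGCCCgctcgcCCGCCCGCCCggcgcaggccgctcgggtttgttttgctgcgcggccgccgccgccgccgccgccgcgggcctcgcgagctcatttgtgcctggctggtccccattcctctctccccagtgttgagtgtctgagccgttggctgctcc
HDAC3: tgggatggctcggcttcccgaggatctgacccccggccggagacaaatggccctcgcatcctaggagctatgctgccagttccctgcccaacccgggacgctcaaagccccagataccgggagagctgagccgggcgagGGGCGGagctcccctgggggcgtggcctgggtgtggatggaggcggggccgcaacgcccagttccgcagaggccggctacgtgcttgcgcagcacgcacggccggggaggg
NCOA1: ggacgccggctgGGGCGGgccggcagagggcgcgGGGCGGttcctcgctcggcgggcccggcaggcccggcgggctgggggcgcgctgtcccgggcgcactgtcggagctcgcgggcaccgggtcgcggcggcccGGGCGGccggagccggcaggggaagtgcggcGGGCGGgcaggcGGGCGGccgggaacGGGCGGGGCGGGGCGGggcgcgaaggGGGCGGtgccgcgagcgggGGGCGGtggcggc
NCOA3: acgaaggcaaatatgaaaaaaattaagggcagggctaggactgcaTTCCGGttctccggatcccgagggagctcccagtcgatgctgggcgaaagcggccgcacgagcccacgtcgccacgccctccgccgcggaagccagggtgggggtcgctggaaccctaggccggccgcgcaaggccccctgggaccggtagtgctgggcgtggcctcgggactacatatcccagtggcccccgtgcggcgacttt
MED1: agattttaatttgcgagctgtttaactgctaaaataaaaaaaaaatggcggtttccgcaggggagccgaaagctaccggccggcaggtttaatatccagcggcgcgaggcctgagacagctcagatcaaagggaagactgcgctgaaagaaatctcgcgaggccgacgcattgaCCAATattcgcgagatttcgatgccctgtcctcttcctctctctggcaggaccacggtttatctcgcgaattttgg

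These upstream windows shared little beyond an open start. The NCOA1 window shown was 87.2% G and C and held 10 matches to GGGCGG, some overlapping by 1 base. The window of a second NCOA1 start under the same peak, not shown, had 74.0% G and C and 3 matches. That motif was found in 53.7% of the 22132 promoter windows of the table. The TBL1XR1 window, with 81.2% G and C, held 4 matches to that motif and the HDAC3 window 1. TBL1X, with 52.0% G and C, held instead a single E-box, which 7.37% of windows contain. MED1, with 50.4%, held a single CCAAT (32.7% of windows). NCOR1 and NCOA3 held 1 ETS match each (17.9% of windows). G and C made up 72.4% of the NCOR1 window, 70.8% of the HDAC3 window and 66.4% of the NCOA3 window. Over all windows of the table the median content of G and C was 62.0%. The windows of NCOA1, TBL1XR1, NCOR1, HDAC3 and NCOA3 lay above it, and those of TBL1X and MED1 below. The half-site AGGTCA (10.5% of windows), TGACTCA (3.45%) and TGACGT (7.97%) had no match in the 13 windows of these 8 genes. A match is a string of letters in this window and not a measured binding site.

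The peaks at the starts differed in strength within the 24 h list. The TBL1X peak ranked highest, with signals of 12.9 and 15.6 in the first and second replicate column, a mean of 14.2 ± 1.90 (SD, n = 2). NCOA3 followed with 13.1 and 13.5, and HDAC3 with 9.26 and 11.9. These 3 genes led in both columns, although TBL1X and NCOA3 changed places in the first.

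Below them TBL1XR1 had 6.09 and 10.9, the widest gap between columns (8.50 ± 3.41, SD, n = 2). The peak nearest the EP300 start had 9.08 and 7.56, MED1 had 7.69 and 8.91, and NCOR1 had 6.95 and 8.71. TBL1XR1 and EP300 changed places between columns, and the replicate ranges of these 4 genes overlapped. The TBL1XR1 range also overlapped that of HDAC3 (9.26 and 11.9), and the EP300 value of 9.08 lay just below the latter. NCOA1 was lowest in both columns, with 5.82 and 6.38, and did not overlap TBL1X, NCOA3, HDAC3, MED1, NCOR1 or EP300; the lower TBL1XR1 value fell between its own 2 values.

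**Figure D2:**
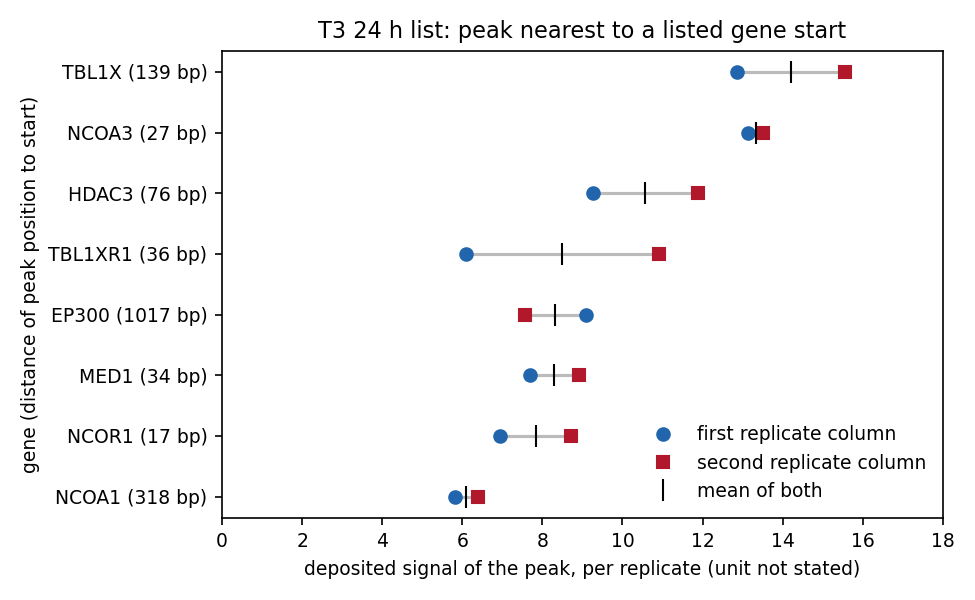
Deposited signal in each replicate column (horizontal axis) of the 24 h peak nearest to a listed start, for 8 genes, with the distance to that start in brackets; black marks are means. TBL1X, NCOA3 and HDAC3 lie above the other genes in each column, and NCOA1 lies lowest at 5.82 and 6.38.

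On the corepressor side, NCOR1 (gene ID 9611, chr17:16029157-16215534, minus strand) had 2 gene-end peaks at 24 h and none in the other lists. The first, at chr17:16214841-16216238, covered the start, with a position 17 bp from it, replicate summits 7 bp apart and percentile 66.5. The second, at chr17:16028207-16028523, lay 895 bp past the other end of the gene and inside the neighbouring gene TTC19, at percentile 40.8, with signals of 5.66 and 5.61. Along the 186 kb of NCOR1 there was no further 24 h peak, whereas 86.5% of genes of its length class had one inside. That class, the longest of 10 equal classes, ran from 152316 to 2473620 bp, so NCOR1 was among its shorter genes. NCOR1 had 9 peaks 1 to 100 kb outside. The strongest of them, at chr17:15999389-16000435 with signals of 12.5 and 15.1, lay 83 bp from an end of ZSWIM7. Another, at chr17:16217101-16217714, lay 31 bp from an end of PIGL and 1645 bp from NCOR1.

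TBL1X (gene ID 6907, chrX:9463295-9719740, plus strand) showed the most peaks inside a gene of this group, 6 at 24 h, against a median of 4 for its length class. The start peak, at chrX:9462907-9463497, was 591 bp wide, lay 139 bp upstream of the start at percentile 94.6, and had replicate summits 20 bp apart. The strongest inner peaks, at chrX:9530879-9531275 and chrX:9562849-9563278, lay 67.7 and 99.8 kb into the gene. Their signals were 8.97 and 11.6 for the first and 8.59 and 11.3 for the second, and the remaining 4 inner peaks ranked at percentiles 20.6 to 65.4.

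Upstream of TBL1X lay the single region at these 9 genes that was present in all 3 lists. It spanned chrX:9404601-9407626 in vehicle, chrX:9404855-9407597 at 6 h and chrX:9404560-9407621 at 24 h, 57.8, 57.6 and 57.9 kb from TBL1X, whose start was the nearest end of a protein-coding gene. Its rank was percentile 85.9 in vehicle (signals 5.29 and 8.25), 96.5 at 6 h (6.69 and 10.7) and 72.8 at 24 h (11.98 and 5.35). The second column was the higher one in vehicle and at 6 h, and the first at 24 h. The peak was 3026, 2743 and 3062 bp wide, against list medians of 1290, 1160 and 696 bp, and its replicate summits lay 988, 645 and 783 bp apart.

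TBL1XR1 (gene ID 79718, chr3:177019344-177201800, minus strand), the paralog of TBL1X, had no peak within 1 kb of its outer boundaries in any list. A 24 h peak at chr3:177197405-177198055 lay 4282 bp inside the annotated gene, but 36 bp upstream of a start in the promoter table, at chr3:177197482. Its replicate summits were 2 bp apart and its percentile was 71.7. The other inner peak, at chr3:177151087-177151775, had percentile 38.7. The 6 h list held 1 peak, at chr3:177219936-177221198, 18.6 kb upstream of the gene, with signals of 4.74 and 5.88 and replicate summits 848 bp apart. No peak of the 24 h list was shared with it, and the strongest 24 h peak outside the gene, at chr3:177299868-177300740 (11.3 and 9.76), lay 98.6 kb away.

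HDAC3 (gene ID 8841, chr5:141620881-141636849, minus strand) is the shortest gene of the group and had the most 24 h peaks, 14, against a median of 8 for its length class (quartiles 6 and 11). It had none in the vehicle or 6 h list. The peak at its start, chr5:141636107-141638152, was 2046 bp wide, the widest gene-end peak of the group, with percentile 83.4 and replicate summits 170 bp apart. A weaker peak lay inside the gene at chr5:141627898-141628584 (6.48 and 6.09). The other 12 peaks lay 1 to 100 kb away, and the nearest gene end to each belonged to DIAPH1, ARAP3 or RELL2 and not to HDAC3. The strongest of them, at chr5:141658095-141658622 (14.3 and 13.5), stood inside ARAP3 at percentile 94.0, above the HDAC3 start peak.

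**Figure D3:**
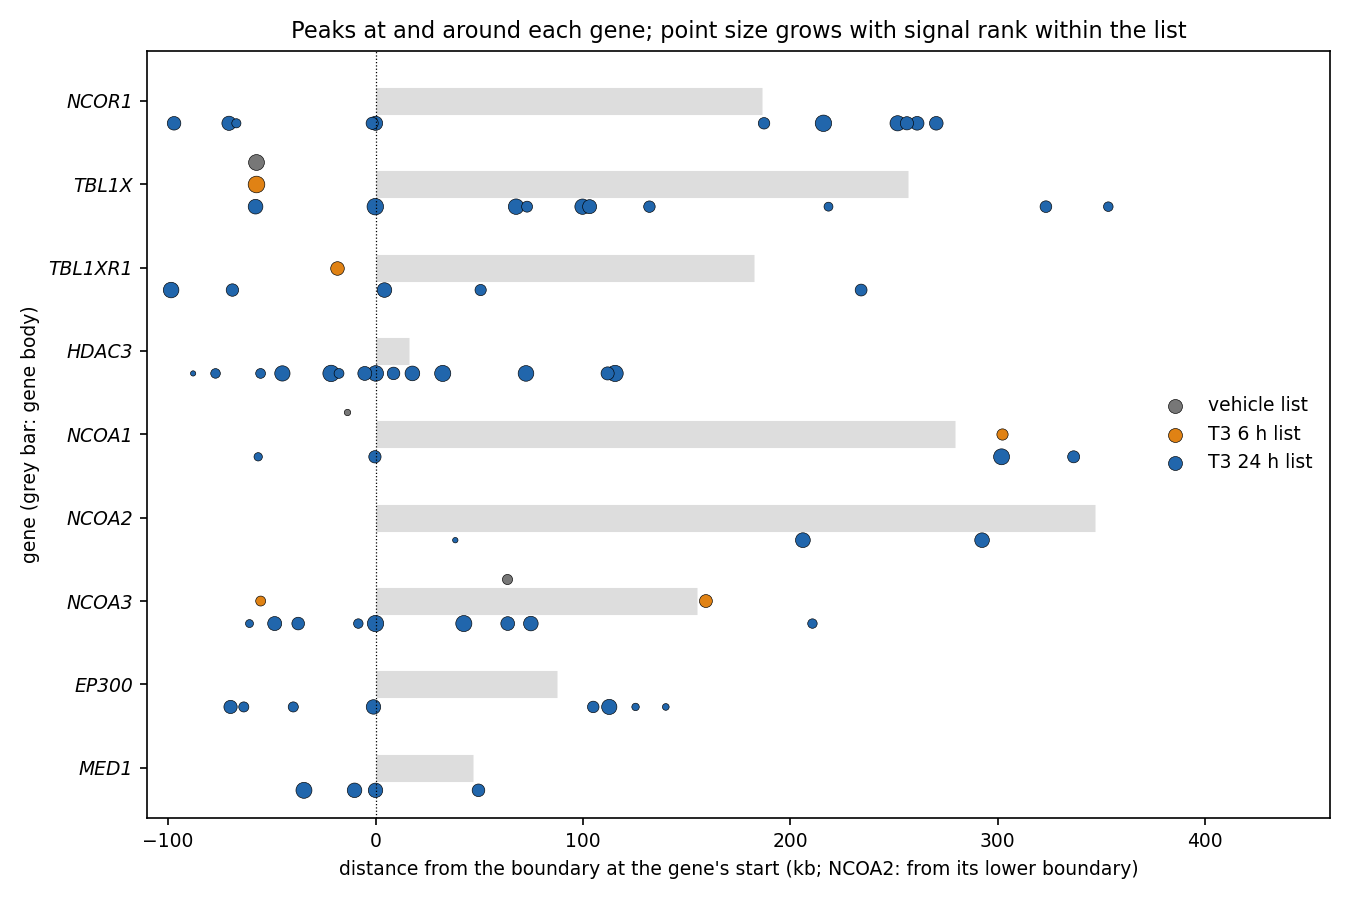
Position of every peak relative to the boundary at the gene's start (horizontal axis, kb; NCOA2 from its lower boundary), with gene bodies in grey and point size growing with signal rank within each list. A 24 h peak stands at or beside the start of 8 genes, the NCOA2 body holds 3 peaks with none around it, and the region upstream of TBL1X is present in all 3 lists.

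Among the steroid receptor coactivators, NCOA3 (gene ID 8202, chr20:47501887-47656872, plus strand) carried the strongest sites. Its start peak, at chr20:47501490-47502418, lay 27 bp from the start at percentile 92.6, with replicate summits 5 bp apart. Inside the gene a peak only 135 bp wide, at chr20:47544350-47544484, reached signals of 11.1 and 13.3 and percentile 89.5. A second inner peak, at chr20:47576596-47576893, had 8.37 and 8.68. The third, at chr20:47565171-47565775 (6.19 and 8.60, summits 6 bp apart), was shared with the vehicle list.

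The vehicle counterpart of that NCOA3 peak, at chr20:47564785-47566121, had signals of 3.82 and 5.43, percentile 29.6 and replicate summits 624 bp apart. It was absent from the 6 h list. At 6 h, NCOA3 had 2 peaks outside the gene, at chr20:47660886-47662180 (5.25 and 5.05), which lay inside SULF2, and at chr20:47446331-47447139 (4.24 and 5.19). Neither was shared with vehicle or with 24 h. The strongest 24 h peak outside NCOA3, at chr20:47453015-47453750, had 4.70 and 10.7.

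NCOA1 (gene ID 8648, chr2:24491254-24770702, plus strand) had 4 peaks at 24 h along a gene of 279 kb and its flanks, below the lower quartile of 5 for its length class, and none inside the gene. The start peak, at chr2:24490605-24492281, spanned 2 listed starts, lay 318 bp upstream of the first at percentile 48.1 (27.1 among peaks with an irreproducible discovery rate of at most 0.01), and had replicate summits 107 bp apart. The strongest peak of the region, at chr2:24792838-24794166 (9.83 and 13.3), lay 22.3 kb beyond the gene and 355 bp from an end of PTRHD1. It was also in the 6 h list, at chr2:24792948-24794138, with signals of 4.12 and 5.64 and summits 470 bp apart. A vehicle peak 13966 bp upstream, at chr2:24477135-24477969 (4.90 and 3.63), ranked at percentile 5.76 and was found in neither T3 list.

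NCOA2 (gene ID 10499, chr8:70109782-70456446) is the longest of the 9 genes and had the fewest 24 h peaks, 3, all inside it, where the lower quartile of its length class was 5. It had no peak within 1 kb of a boundary and none 1 to 100 kb outside in any list, while 95.7% of protein-coding genes had a 24 h peak at that outer distance. The inner peaks at chr8:70315647-70316151 (6.91 and 10.8) and chr8:70401825-70402847 (7.71 and 9.50) stood at percentiles 74.2 and 72.4. The third, at chr8:70148056-70148406 (3.77 and 4.01), was among the weakest of the list, at percentile 1.24.

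EP300 (gene ID 2033, chr22:41092592-41180077, plus strand), a histone acetyltransferase, had 8 peaks at 24 h, as many as the median of its length class, and none in vehicle or at 6 h. All 8 lay outside the gene, which had no inner peak, against 76.6% of its length class with one. The nearest, at chr22:41091186-41092245, ended 347 bp before the start. Its position lay 1017 bp upstream, just past the limit of 1 kb that the NCOR1 peak at 895 bp met. Its replicate summits were 12 bp apart and its percentile was 70.4. The strongest, at chr22:41205083-41205981 (10.1 and 9.21), lay 25.2 kb beyond the gene and 62 bp from an end of L3MBTL2.

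MED1 (gene ID 5469, chr17:39404285-39451263, minus strand) had 4 peaks at 24 h against a median of 8 for its length class (quartiles 5 and 12), and none in the other lists. The start peak, at chr17:39450702-39451427, lay 34 bp upstream of the start, with summits 24 bp apart and percentile 70.2. No 24 h peak lay further inside the gene. The strongest peak of the region, at chr17:39485542-39485871 (13.2 and 10.3), lay in CDK12, 34.5 kb away, and another at chr17:39461260-39461981 (7.69 and 9.24) lay 78 bp from an end of that gene.

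Grouped by position, the 7 gene-end peaks of the group had a median percentile of 70.2 in the 24 h list, and 11541 gene-end peaks of all genes had 72.2. The 15 inner peaks had a median of 65.4, and the 46 outer peaks had 56.7. The 48758 peaks of the list away from gene ends had 44.9. That set leaves out every peak within 1 kb of a protein-coding gene end, but the outer peaks include 10 of this kind. The outer median therefore cannot be compared directly with 44.9. The inner peaks ranged from percentile 1.24 to 89.5 and include the TBL1XR1 peak at a listed start. Inner peaks of all genes were not ranked as a set, so the inner median has no matched background either. Of the outer peaks 25 lay inside another protein-coding gene and 10 within 1 kb of an end of one, and for 33 of the 68 peaks the nearest gene end was that of a gene of this group. Replicate summits lay within 100 bp of each other in 49 of 68 peaks (72.1%), against 70.5% of the list's peaks on the autosomes and X. At 6 h this held for 1 of 5 peaks (29.1% of the list) and in vehicle for 0 of 3 (37.8%). The distances to the nearest listed start were 17 bp at NCOR1, 27 bp at NCOA3, 34 bp at MED1, 36 bp at TBL1XR1, 76 bp at HDAC3, 139 bp at TBL1X and 318 bp at NCOA1, where 10202 peaks of the list within 1 kb of a start had a median of 113 bp and quartiles of 49.2 and 255 bp.

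Between lists, 66 of the 68 peaks at 24 h (97.1%) had no shared vehicle peak, against 96.0% of all 24 h peaks. Likewise 66 (97.1%) had no shared 6 h peak, against 89.8%. The peaks shared with vehicle were the region upstream of TBL1X and the inner NCOA3 peak, and those shared with 6 h were the region upstream of TBL1X and the peak at PTRHD1. None of the 7 gene-end peaks was in either other list, so 6 of 9 genes had a gene-end peak at 24 h and not in vehicle, with 59.7% of all genes. The 6 h list had 2 of its 5 peaks in common with 24 h (49.3% of all 6 h peaks) and 1 with vehicle (19.2%). The vehicle list had 2 of its 3 peaks in common with 24 h (33.6% of all vehicle peaks) and 1 with 6 h (33.2%).

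Other genes of the same pathways were taken from fixed lists. Of 51 such genes, 47 had a gene-end peak at 24 h (92.2%, with 60.8% over all genes), 5 at 6 h (9.8%, with 10.8%) and 1 in vehicle (1.96%, with 1.34%). Among 10 other corepressor genes, 8 had a 24 h peak and 0 had one at 6 h or in vehicle. The strongest were at HDAC2 (13.6 and 14.9), KDM1A (10.5 and 13.4), a histone demethylase, and HDAC1 (10.0 and 13.6), and those without were SIN3A and SIN3B, scaffolds of another deacetylase complex.

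Among 13 other coactivator genes, 12 had a 24 h peak and 0 one in the other lists. CCAR1 (13.2 and 18.4), NCOA4 (13.2 and 15.3) and NCOA5 (11.5 and 14.8) ranked highest, and NCOA6 had none. CREBBP, the paralog of EP300, had a 24 h peak at chr16:3880826-3881689 (4.55 and 7.31), at percentile 45.5.

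Among these 51 genes, of which 28 are Mediator genes, those with a gene-end peak in the vehicle or 6 h list all encode Mediator subunits. The other lists are short, and their 0 of 10 and 0 of 13 at 6 h stand beside a share of 10.8% over all genes. The 28 genes encode Mediator subunits or its kinase module, other than MED1. Of these, 27 had a peak at 24 h (96.4%, with 60.8% of all genes), and MED16 had none. At 6 h 5 had one (17.9%, with 10.8%) and in vehicle 1 (3.57%, with 1.34%). MED7 had 4.33 and 4.93 at 6 h, at percentile 21.8 of that list, and 16.6 and 22.3 at 24 h, at percentile 99.5. MED23 and CCNC, the cyclin of the kinase module, followed at 24 h with 14.2 and 23.1, and with 12.6 and 21.1. MED28 had the strongest 6 h peak of these genes (5.50 and 6.94, percentile 84.9), with replicate summits 137 bp apart. Percentiles of different lists are not like for like. Gene-end peaks of all genes had a median percentile of 43.8 in vehicle, 49.1 at 6 h and 72.2 at 24 h.

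MED17, a subunit of the Mediator head, was in all 3 lists, at chr11:93784024-93785355 in vehicle (5.36 and 3.27, percentile 8.53), chr11:93783975-93785276 at 6 h (5.67 and 4.63, percentile 54.2) and chr11:93783931-93785212 at 24 h (7.13 and 15.6, percentile 86.5). Its replicate summits lay 409, 344 and 30 bp apart. The MED17 percentiles, like those of MED7, are ranks within lists that differ throughout. MED11 (4.26 and 5.29) and MED18 (5.65 and 3.62) completed the genes with a 6 h peak, at percentiles 31.6 and 22.3. All 5 of these 6 h peaks were shared with the 24 h list, beside 49.3% of all 6 h peaks. The share among gene-end peaks of all genes at 6 h was not computed, so the count shows nothing particular to Mediator genes.

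**Figure D4:**
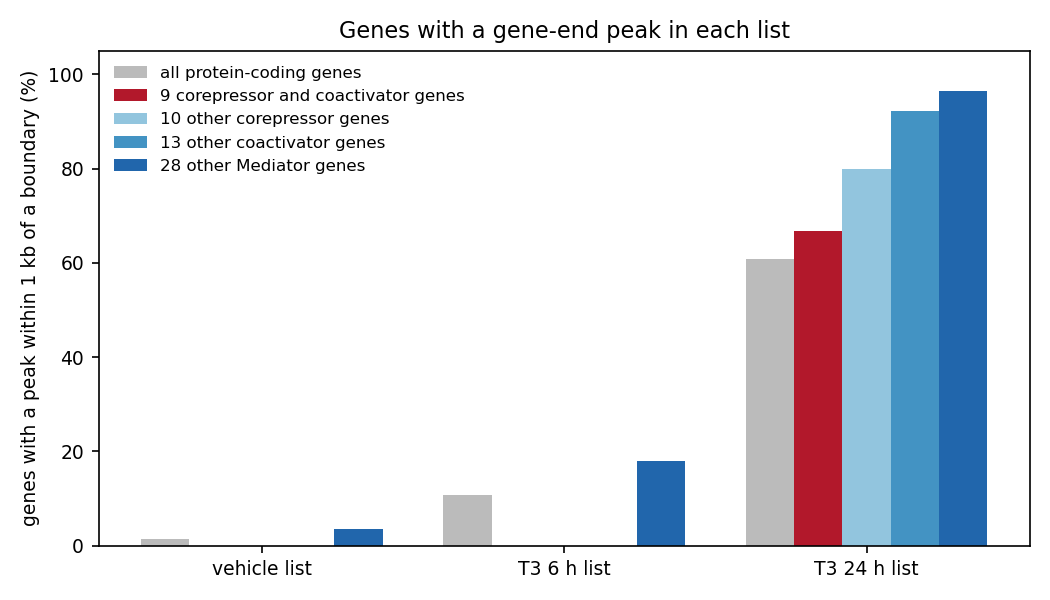
Share of genes with a peak within 1 kb of a boundary (vertical axis, %) in each list, for all protein-coding genes, the 9 corepressor and coactivator genes and 3 fixed lists of other pathway genes. At 24 h the 9 genes reach 66.7%, beside 60.8% of all genes and 96.4% of the other Mediator genes.

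The 24 h counts rest on a list that is longer than the others. When only the top 7103 peaks of each list by signal were kept, 2 of the 9 genes, TBL1X and NCOA3, had a gene-end peak at 24 h (16.6% of all genes), and 0 at 6 h (6.26%) or in vehicle (1.34%). With replicate summits within 100 bp, 4 did at 24 h: NCOR1, TBL1X, NCOA3 and MED1 (43.5% of all genes, with 3.14% at 6 h and 0.32% in vehicle). At an irreproducible discovery rate of at most 0.01 all 6 genes had one at 24 h (55.1% of all genes), and 0 had one at 6 h (3.59%) or in vehicle (0.461%).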

How the data were processed

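ATAC-seq libraries of 6 samples from 1 cell line were analysed. CASAVA 1.7, Bowtie2, MACS2, Trim Galore, DiffBind and the build hg38 come from the submitters' processing notes. Their settings, the Tn5 shift and the handling of duplicates were not given in the sources used. The authors deposited 3 lists in the layout of the IDR method, 1 per group from both replicates. The score the authors deposited is a scaled irreproducible discovery rate (IDR), and a further deposited column gives its −log10. By these values no peak exceeded an IDR of 0.05. The signal, as deposited, adds up 2 unnamed replicate columns, of unstated normalisation. Read depth is unknown.

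Positions, ranks and overlaps were computed with Python 3.11.15, numpy 2.4.6 and pandas 2.3.3, and figures with matplotlib 3.10.9. The code was tested on simulated data and against bedtools 2.31.1. A peak counted as shared between lists where the overlap reached 50% of the shorter peak. Genes and promoter windows came from RefSeq, GRCh38.p14, and exons were not analysed. The 9 genes, the pathway lists, the motifs and the rule for named genes were chosen with earlier results of these data known. That rule named all 9 genes and, per list, genes with a vehicle or 6 h gene-end peak and the 3 strongest at 24 h. CREBBP, SIN3A, SIN3B, NCOA6, MED16 and the thyroid genes were chosen after values were seen. Nothing was tested between conditions, since each has 1 list. No label tells whether both samples of a group were separate cultures. Alternatives were a stricter IDR, lists of equal length, close summits, other windows and other definitions of position.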

Additional observations from a re-analysis of the deposited data

How the results depend on the processing

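The 0 counts of gene-end peaks in vehicle and at 6 h were the same under every setting tried. A stricter IDR, equal length, close summits and a narrower window can only remove gene-end peaks, so they could not have raised a 0. Only the wider window and the other definitions of position could have done so. The 6 genes at 24 h stayed between 4 and 7, except with lists of equal length. There, 2 genes were left by summed signal and 2 by either replicate column alone. Equal length also reduced the 68 peaks at 24 h to 7 (8 to 10 by 1 column) and the 5 peaks at 6 h to 3 (3 by either column). All 7 were without a shared vehicle or 6 h peak (8 to 9 and 7 to 9 by 1 column). The share over all peaks of the shortened lists is not given here, so these counts show nothing particular to the 9 genes. In the full lists 96.0% of all 24 h peaks had no shared vehicle peak and 89.8% no shared 6 h peak. With an IDR of at most 0.01, 1 vehicle and 2 peaks at 6 h were left. With summits within 100 bp, 0 vehicle peaks and 1 at 6 h were left. Within 50 kb there were 42 peaks at 24 h and 3 at 6 h, and with the nearest gene only, 33 and 3. Among peaks with an IDR of at most 0.01, a shorter list, the percentile of the start peak was 27.1 at NCOA1, 52.6 at NCOR1, 57.8 at MED1, 76.5 at HDAC3, 89.5 at NCOA3 and 92.3 at TBL1X. The use of gene starts or of whole peaks, which gave 7 genes each at 24 h, was chosen after seeing the data. No paired analysis was possible because the replicate columns carry no sample number and no test was made. The lists give no read counts, so depth sets an unknown limit on what could be found in each.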
